A study of Mus musculus with 10 samples.

Results

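The hexokinases Hk1, Hk2 and Hk3, the phosphofructokinases Pfkl and Pfkp, and the phosphofructokinase regulators Pfkfb4 and Tigar were compared between leukaemia cells and the myeloid cells around them in mouse bone marrow. They were chosen by name in the deposited table and make up 7 of its 10141 genes. All 7 had a value in every library and all 7 passed the filter on low values, as did 8079 genes in all. GFP+ leukaemia cells (5 libraries) came from MLL-AF9/GFP cells that were thawed and given to CD45.1 recipients through a tail vein. GFP-CD11b+ myeloid cells, taken from bone marrow of mice with the same leukaemia, served as the comparison (5 libraries). The treatment protocol names flow cytometry for both sorts, while the series design names a magnetic (MACS) sort of CD45.2-negative CD11b+ cells for the myeloid group. Marrow was taken once GFP+ cells made up 2% of the peripheral blood, and no treatment, age or sex was given. The labels name neither separate mice for the libraries nor whether the injected cells were 1 clone, so the p-values measure the spread between these libraries. MLL-AF9 joins part of a histone methyltransferase to part of a partner protein and causes myeloid leukaemia, and GFP marks the cells that carry it. CD11b is an integrin chain on the surface of granulocytes and monocytes. The labels give the same genotype and cell type for all 10 libraries, so the groups rest on the sorted population named for each.

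Hexokinases phosphorylate glucose on entry into the cell, which traps it there and opens glycolysis, the pentose phosphate pathway and glycogen synthesis to it. Phosphofructokinase then commits the sugar to glycolysis, and its strongest activator is fructose 2,6-bisphosphate. Enzymes of the PFKFB family make and remove that activator, and TIGAR also removes it. Mature neutrophils rely strongly on glycolysis, while TIGAR is known for turning glucose towards the pentose phosphate pathway.

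The libraries held 24099545 to 30879471 recovered reads in leukaemia and 24712829 to 32247826 in myeloid cells over the genes of the table. Hoxa9, a homeobox gene of the fusion programme, ranged over 2882 to 3671 normalised reads in leukaemia libraries and 7.33 to 21.0 in myeloid libraries. Itgam, the gene of CD11b, ranged over 10810 to 13908 in leukaemia libraries and 80982 to 118074 in myeloid libraries. Normalised reads are reads divided by the authors' size factor of the library. The 12 mature neutrophil markers summed to 84786 to 90155 in leukaemia and 2943341 to 4637475 in myeloid cells, and all 12 were lower in leukaemia. The 5 primary granule markers, genes of promyelocytes, summed to 241536 to 306052 in leukaemia and 24385 to 54202 in myeloid cells, and all 5 were higher in leukaemia. Monocyte markers summed to 24419 to 41043 in leukaemia and 53139 to 99602 in myeloid cells, and T and NK cell markers to 2870 to 5866 in leukaemia and 1662 to 3695 in myeloid cells. Macrophage markers summed to 5474 to 7353 in leukaemia and 15991 to 31670 in myeloid cells, and MHC class II and dendritic markers to 960 to 2236 in leukaemia and 5214 to 52783 in myeloid cells. B cell sums were 465 to 581 in leukaemia and 458 to 2095 in myeloid cells, erythroid sums 2.55 to 62.0 in leukaemia and 5.91 to 245 in myeloid cells, and platelet sums (1 of 4 listed genes with an entry) 34.7 to 140 in leukaemia and 111 to 257 in myeloid cells. In leukaemia the T and NK cell sum was mostly Nkg7, a granule gene of cytotoxic cells (4331 ± 1163 in leukaemia and 1004 ± 314 in myeloid cells), while Gzma (0.575 ± 1.29 in leukaemia and 1097 ± 500 in myeloid cells), Cd3d (5.92 ± 5.53 in leukaemia and 243 ± 56.4 in myeloid cells) and Cd3e (0.371 ± 0.83 in leukaemia and 21.5 ± 12.5 in myeloid cells) had lower means in leukaemia. Cd3g, a defining T cell gene, was at 0 in all leukaemia libraries. Differences in the 7 genes therefore stand beside a difference in maturation stage, and the groups and the stage cannot be told apart here. In such bulk samples, fewer cells of a type and less RNA per cell cannot be told apart either.

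Myeloid replicates 2 and 4 stood apart from replicates 1, 3 and 5. The 6 MHC class II and dendritic markers summed to 5214 to 5317 normalised reads in replicates 2 and 4, against 33624 to 52783 in the other 3. The 5 monocyte markers with an entry, of 7 listed, summed to 53139 to 58935 in replicates 2 and 4, against 89428 to 99602. Mature neutrophil markers ran the other way, with 4637475 and 3920622 normalised reads in replicates 2 and 4, against 2943341 to 3219643, and so did primary granule markers (35066 to 54202, against 24385 to 26387). Macrophage (5 of 9 listed genes with an entry), B cell (5 of 6) and erythroid (2 of 6) sums were also lower in replicates 2 and 4. The part of this difference in the results below was not tested, and values without replicates 2 and 4 are given.

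With the authors' size factors, Pfkl, Pfkp and Tigar were higher in leukaemia cells, and Pfkfb4, Hk1, Hk2 and Hk3 were lower, although Hk1 and Hk2 did not pass and Hk3 was higher under 2 other scalings. All 7 passed at an adjusted p of 0.05, in a table where 99.8% of the tested genes passed (49.1% higher and 50.7% lower in leukaemia). The groups did not overlap for any of the 7 genes, as for 86.8% of the tested genes. Since nearly every gene of the table differed, neither count sets the 7 genes apart. By size, 2 of the 7 (Pfkfb4 and Tigar) had a log2 difference of at least 1 in either direction, as did 27.7% of the tested genes. The median log2 difference was -0.39 over the 7 genes and -0.16 over all tested genes. Log2 differences here are differences of mean variance-stabilised values, leukaemia minus myeloid, which are smaller than log2 folds for genes with few reads, and folds are ratios of mean normalised reads.

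**Figure D1:**
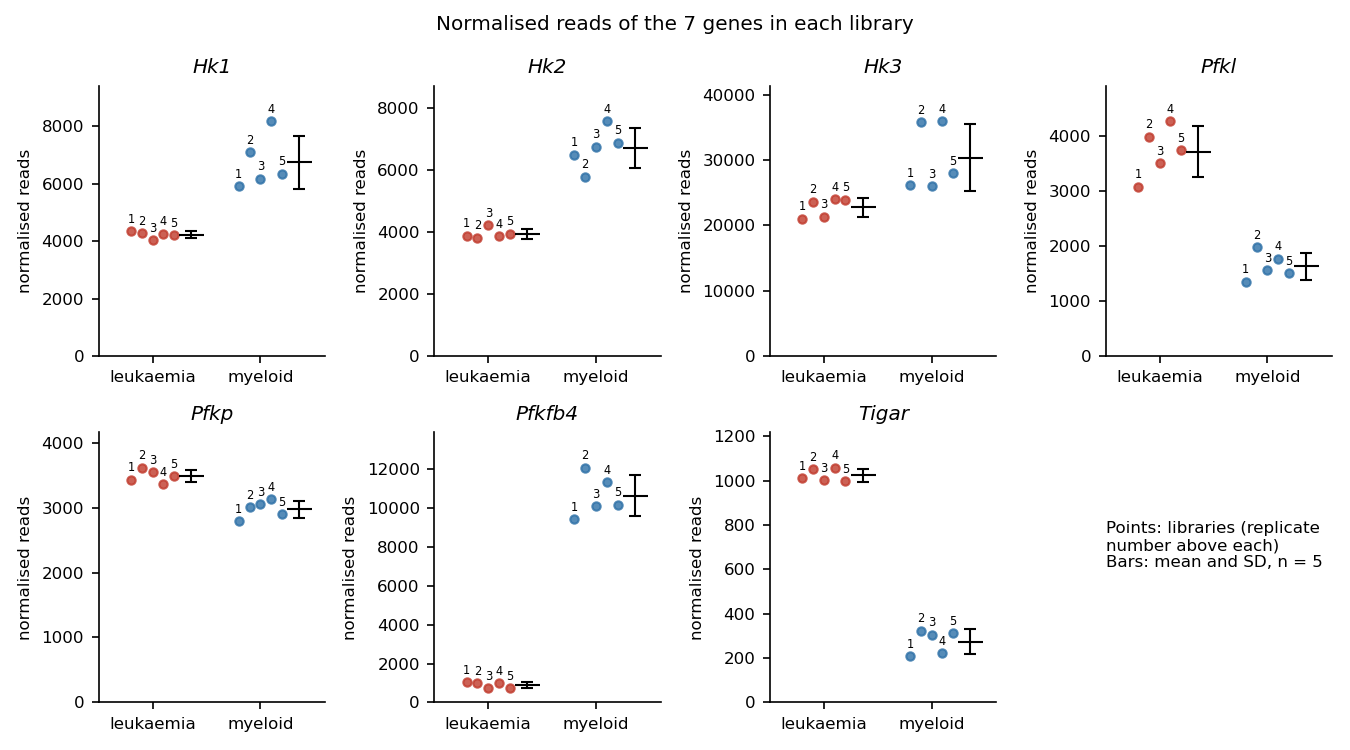
Normalised reads (y axes, from 0) of Hk1, Hk2, Hk3, Pfkl, Pfkp, Pfkfb4 and Tigar in each library, leukaemia left and myeloid right, with the replicate number above each point and the mean and SD (n = 5) as bars. The groups are separate in every panel, and Hk3 lies highest in myeloid replicates 2 and 4.

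Hk3 was the most abundant hexokinase transcript in every library. Its protein is the hexokinase of granulocytes and monocytes, and unlike HK1 and HK2 it lacks the N-terminal stretch that binds mitochondria. Hk3 had 21045, 23657, 21343, 23984 and 23929 normalised reads in leukaemia replicates 1 to 5, against 26114, 35860, 25999, 35962 and 27982 in myeloid replicates 1 to 5. The 2 highest myeloid libraries were replicates 2 and 4, and the lowest myeloid library was still above the highest leukaemia library. The means were 22792 ± 1467 in leukaemia and 30383 ± 5107 in myeloid cells (n = 5 each, SD), 1.33-fold lower in leukaemia (log2 difference -0.39, SE 0.107, limma adjusted p = 0.00334). Without myeloid replicates 2 and 4 the log2 difference was -0.22 (limma adjusted p = 0.00987).

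Hk1 encodes the widely expressed hexokinase that sits on the outer mitochondrial membrane. It had 4353, 4279, 4026, 4257 and 4203 normalised reads in leukaemia, against 5914, 7114, 6181, 8184 and 6350 in myeloid cells. The leukaemia libraries lay close together, and myeloid replicate 4 was the highest. Hk1 averaged 4224 ± 123 in leukaemia and 6749 ± 918 in myeloid cells (n = 5 each, SD), 1.6-fold lower in leukaemia (log2 difference -0.60, SE 0.0788, limma adjusted p = 7.89e-06). Hk2 encodes the inducible hexokinase of muscle and many tumours, in which both domains of the protein are catalytic. Its normalised reads were 3885, 3812, 4222, 3861 and 3945 in leukaemia, against 6490, 5783, 6754, 7573 and 6881 in myeloid cells. Hk2 averaged 3945 ± 162 in leukaemia and 6696 ± 648 in myeloid cells (n = 5 each, SD), 1.7-fold lower in leukaemia (log2 difference -0.68, SE 0.0679, limma adjusted p = 5.48e-07). Unlike Hk1 and Hk3, Hk2 was lowest in replicate 2 among the myeloid libraries.

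The 3 hexokinase decreases passed with the authors' size factors and with size factors recomputed from the table as medians of ratios (voom log2 folds -0.65 for Hk1, -0.74 for Hk2 and -0.38 for Hk3, adjusted p = 1.14e-05, 7.1e-07 and 0.00517), but not under 2 other scalings. The table's genes summed to 1.56 times as many normalised reads in myeloid cells as in leukaemia. When the table's own total set the scale of each library, the median of all genes moved to 0.43, the log2 folds of Hk1 (-0.03, adjusted p = 0.673) and Hk2 (-0.12, adjusted p = 0.199) no longer passed in limma's voom fit, and Hk3 was higher in leukaemia (0.24, adjusted p = 0.00946). As parts of all reads in the table, Hk3 made up 1015 ± 59.1 RPM in leukaemia and 863 ± 83.0 in myeloid cells, and the groups overlapped. Hk1 made up 188 ± 4.75 RPM in leukaemia and 192 ± 15.1 in myeloid cells. After quantile normalisation, with the median of all genes at 0.09, Hk1 (-0.06) and Hk2 (-0.14) did not pass either, and Hk3 passed as higher (0.19). Relative to the median gene, Hk1 was at -0.45, Hk2 at -0.53 and Hk3 at -0.24 with the authors' size factors, at -0.46, -0.55 and -0.19 scaled to the table total, and at -0.15, -0.23 and 0.10 after quantile normalisation.

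**Figure D2:**
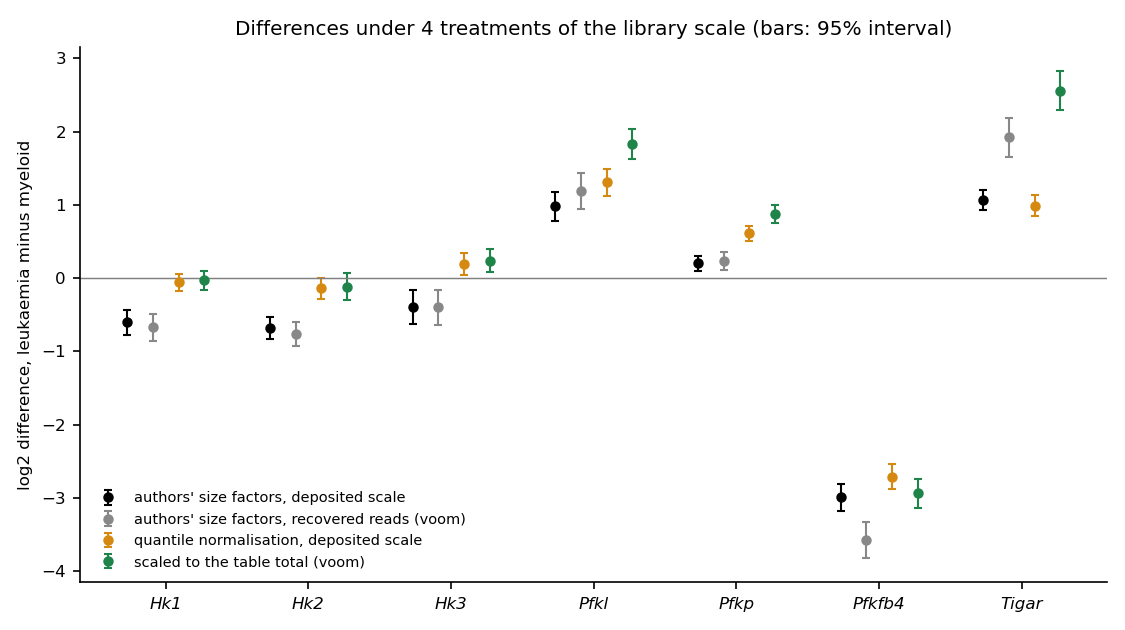
Log2 difference, leukaemia minus myeloid (y axis), of the 7 genes (x axis) with the authors' size factors on the deposited scale and on recovered reads, after quantile normalisation and with the table total as scale, with 95% intervals from limma. Pfkfb4 stays far below 0 and Pfkl, Pfkp and Tigar above 0 under all 4, while Hk1 and Hk2 move to about 0 and Hk3 crosses it after quantile normalisation and with the table total.

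Shares of isozymes within a library are free of that scaling. Reads were divided by the length of the longest protein-coding transcript (4278 bases for Hk1, 5513 for Hk2 and 3219 for Hk3). Per kilobase, Hk3 made up 79.1%, 81.3%, 79.5%, 81.5% and 81.4% of the 3 hexokinases in leukaemia, against 76%, 80.4%, 75.2%, 77.3% and 76.1% in myeloid cells. Myeloid replicate 2 reached into the leukaemia range. The share was 3.58 percentage points higher in leukaemia (80.6% ± 1.13 in leukaemia and 77.0% ± 2.06 in the myeloid group, SD, n = 5 each, exact two-sided permutation test p = 0.0238, adjusted over the 7 shares and ratios 0.0278). That call was lost (adjusted exact p = 0.0556) without any 1 of leukaemia replicates 2, 4 and 5 or myeloid replicates 1, 3, 4 and 5. The differences there stayed at 3.12 to 3.65 points, and a test with 1 library fewer has fewer assignments. Hk1 held 11.3% ± 0.624 of the hexokinase reads per kilobase in leukaemia and 12.9% ± 0.551 in myeloid cells (exact two-sided permutation test p = 0.0159, adjusted 0.0222). Hk2 held 8.17% ± 0.673 in leukaemia and 10.1% ± 1.58 in myeloid cells. That difference did not pass (exact two-sided permutation test p = 0.0556, adjusted 0.0556). Replicate 2, at 7.57%, was the only myeloid library not above every leukaemia library (7.65% to 9.19%). Leaving it out separated the groups fully, so the adjusted p of 0.0159 there (difference -2.54 points) is no separate support. Leaving out any other library gave an adjusted p of 0.0794 to 0.111. The level of the shares depends on the length used. With merged exons the Hk3 share was 84.2% in leukaemia and 81.0% in myeloid cells, and with the coding sequence it was 73.8% in leukaemia and 69.3% in myeloid cells.

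**Figure D3:**
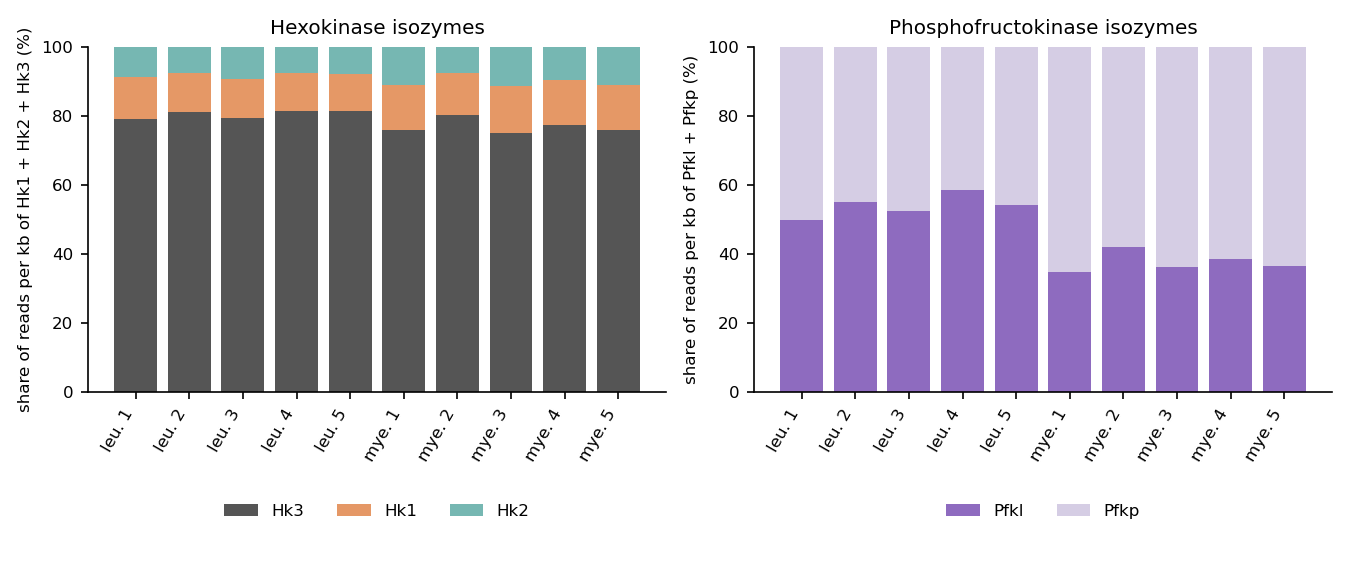
Share of each isozyme in the reads per kilobase of its family (y axes, %) in each library, leukaemia (leu.) replicates 1 to 5 left and myeloid (mye.) replicates 1 to 5 right, hexokinases in the left panel and phosphofructokinases in the right. Hk3 takes 75.2% to 81.5% of the hexokinase reads in all libraries, while Pfkl takes 50% to 58.5% in leukaemia and 34.9% to 42.2% in myeloid cells.

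Phosphofructokinase transcripts were higher in leukaemia. Pfkl encodes the liver-type subunit of the enzyme. It had 3081, 3991, 3504, 4270 and 3744 normalised reads in leukaemia, against 1351, 1980, 1558, 1767 and 1501 in myeloid cells. Replicate 1 was the lowest library in each group, and the groups were well separated. Pfkl averaged 3718 ± 456 in leukaemia and 1632 ± 245 in myeloid cells (n = 5 each, SD), 2.28-fold higher in leukaemia (log2 difference 0.98, SE 0.0916, limma adjusted p = 3.08e-07). Pfkp, the gene of the platelet-type subunit, had 3431, 3615, 3544, 3361 and 3482 normalised reads in leukaemia, against 2796, 3012, 3055, 3129 and 2897 in myeloid cells. Its difference was small but its libraries were tight, with coefficients of variation of 2.82% in leukaemia and 4.43% in myeloid cells. Pfkp averaged 3487 ± 98.3 in leukaemia and 2978 ± 132 in myeloid cells (n = 5 each, SD), 1.17-fold higher in leukaemia (log2 difference 0.20, SE 0.0495, limma adjusted p = 0.0021). In the GENCODE annotation 748 bases of Pfkp exons overlap exons of Pitrm1 on the opposite strand, and how strand was handled in counting is not known here, so the Pfkp reads are uncertain to that extent. Hk1 (157 bases, Hk1os), Tigar (122 bases, Platr31) and Hk3 (34 bases, Unc5a) have shorter opposite-strand overlaps.

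Pfkl and Pfkp differed in their balance within libraries. Per kilobase, Pfkl made up 50%, 55.1%, 52.4%, 58.5% and 54.4% of the sum of Pfkl and Pfkp in leukaemia, against 34.9%, 42.2%, 36.2%, 38.6% and 36.5% in myeloid cells. Every leukaemia library lay above every myeloid library. The means were 54.1% ± 3.20 in leukaemia and 37.7% ± 2.85 in myeloid cells (n = 5 each, SD), a difference of 16.4 percentage points with an exact two-sided permutation test p = 0.00794, the smallest that 5 against 5 libraries allow (adjusted 0.0139). The difference was 15.8 to 16.4 points whichever length was used, while the Pfkl share itself was 68.0% in leukaemia and 52.2% in myeloid cells with merged exons.

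Pfkfb4 had the lowest log2 difference of the 7 genes. Its product is a bifunctional enzyme that makes fructose 2,6-bisphosphate with a kinase domain and removes it with a phosphatase domain, and it is known as a hypoxia-induced and tumour-associated isoform. Pfkfb4 had 1029, 982, 734, 984 and 749 normalised reads in leukaemia, against 9445, 12081, 10105, 11344 and 10185 in myeloid cells. Leukaemia replicates 3 and 5 were the lowest, and myeloid replicates 2 and 4 the highest. Pfkfb4 fell to 896 ± 142 in leukaemia, against 10632 ± 1060 in myeloid cells (n = 5 each, SD), 11.9-fold lower (log2 difference -2.99, SE 0.0855, limma adjusted p = 6.95e-12). Its decrease held under the tested scalings. On recovered reads the voom log2 fold was -3.58 with the authors' size factors and -2.94 scaled to the table total. On the deposited scale the log2 difference was -2.71 after quantile normalisation, against -2.99 with the authors' size factors.

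Tigar went the opposite way. TIGAR removes the phosphate at position 2 of fructose 2,6-bisphosphate and was first described as a target of p53. Tigar had 1011, 1053, 1002, 1059 and 997 normalised reads in leukaemia, against 209, 324, 305, 223 and 313 in myeloid cells. Its leukaemia libraries were within a few percent of one another (coefficient of variation 2.84%), and the myeloid libraries spread more (19.8%). Tigar averaged 1024 ± 29.1 in leukaemia and 275 ± 54.3 in myeloid cells (n = 5 each, SD), 3.73-fold higher in leukaemia (log2 difference 1.07, SE 0.0620, limma adjusted p = 2.92e-09). These values rested on 1075 to 1425 reads per library in leukaemia and 177 to 274 in myeloid cells. On recovered reads, where the shrinkage of low values by the variance-stabilising function no longer applies, the log2 fold was 1.92 with the authors' size factors and 2.56 scaled to the table total.

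Ratios within a library put these opposite changes together. Per kilobase, the log2 ratio of Pfkfb4 to Tigar was 0.09, -0.03, -0.38, -0.04 and -0.35 in leukaemia, against 5.57, 5.29, 5.11, 5.73 and 5.09 in myeloid cells. By the longest transcripts, the 2 genes were thus at about equal levels in leukaemia, with a geometric mean ratio of 0.906. Pfkfb4 exceeded Tigar 41.0-fold in myeloid cells. These levels depend on the length used, while the difference between the groups does not. With coding sequences, mean normalised reads per kilobase were 637 for Pfkfb4 and 1269 for Tigar in leukaemia, and 7556 and 340 in myeloid cells. With merged exons they were 184 and 280 in leukaemia, and 2181 and 75.1 in myeloid cells. The difference in log2 ratio was -5.50, or 45.3-fold (-0.14 ± 0.21 in leukaemia and 5.36 ± 0.28 in the myeloid group, SD, n = 5 each, exact two-sided permutation test p = 0.00794, adjusted 0.0139). Pfkfb4 relative to the sum of Pfkl and Pfkp stood at a log2 ratio of -2.85 ± 0.26 in leukaemia and 1.40 ± 0.05 in myeloid cells (difference -4.25, exact two-sided permutation test p = 0.00794, adjusted 0.0139). Hexokinase relative to phosphofructokinase transcripts stood at a log2 ratio of 2.26 ± 0.05 in leukaemia and 3.4 ± 0.13 in myeloid cells. This ratio was 2.2-fold lower in leukaemia (difference -1.14, exact two-sided permutation test p = 0.00794, adjusted 0.0139), and every leukaemia library, from 2.22 to 2.32, lay below every myeloid library, from 3.22 to 3.56.

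**Figure D4:**
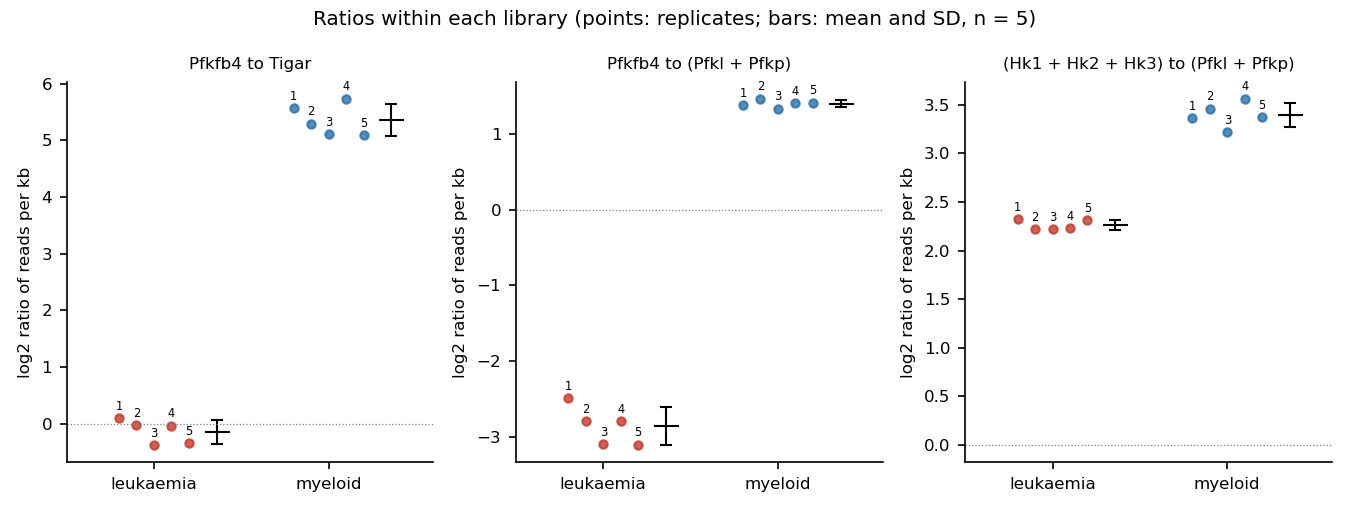
Log2 ratios of reads per kilobase within each library (y axes) for Pfkfb4 to Tigar, Pfkfb4 to the sum of Pfkl and Pfkp, and the 3 hexokinases to the sum of Pfkl and Pfkp, leukaemia left and myeloid right, with replicate numbers above the points and the mean and SD (n = 5) as bars. All 3 ratios are lower in leukaemia with no overlap, and by the longest transcripts the ratio of Pfkfb4 to Tigar lies near 0 in leukaemia.

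The order of the 7 transcripts per kilobase differed between the groups. In leukaemia it was Hk3 (7080 ± 456 normalised reads per kilobase), Pfkl (997 ± 122), Hk1 (987 ± 28.8), Pfkp (841 ± 23.7), Hk2 (716 ± 29.4), Tigar (281 ± 7.96) and Pfkfb4 (257 ± 40.8). Pfkl and Hk1 did not differ beyond their spread there, nor did Tigar and Pfkfb4. In myeloid cells the order was Hk3 (9439 ± 1587), Pfkfb4 (3048 ± 304), Hk1 (1578 ± 215), Hk2 (1215 ± 118), Pfkp (718 ± 31.8), Pfkl (437 ± 65.7) and Tigar (75.2 ± 14.9), and no neighbours overlapped. Hk3 came first in both groups whichever length was used, and Pfkfb4 came second in myeloid cells and last in leukaemia. The middle of the order changed with the length: with merged exons Hk2 came second and Pfkp sixth in leukaemia. Pfkfb4 lay below Tigar in leukaemia without overlap when merged exons (184 ± 29.2 for Pfkfb4 and 280 ± 7.95 for Tigar) or coding sequences were used.

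Promoter sequences are shown for 3 genes that were lower in leukaemia under the authors' size factors and that have well-known regulators. HK2 and PFKFB4 are targets of hypoxia-inducible factors, and HK3 is a target of the myeloid factor PU.1 in human cells. The windows run from 250 bases before to 50 bases after the RefSeq transcript start (build GRCm38.p6), and the build behind the deposited counts was not given in the sources used here. Capitals mark, for Pfkfb4 (chr9:108991652-108991951, plus strand) and Hk2 (chr6:82774405-82774704, minus strand), the hypoxia-response cores ACGTG and GCGTG on either strand. For Hk3 (chr13:55021336-55021635, minus strand) they mark AGGAAG, a core of PU.1 motifs, which reads CTTCCT on the opposite strand.
Pfkfb4: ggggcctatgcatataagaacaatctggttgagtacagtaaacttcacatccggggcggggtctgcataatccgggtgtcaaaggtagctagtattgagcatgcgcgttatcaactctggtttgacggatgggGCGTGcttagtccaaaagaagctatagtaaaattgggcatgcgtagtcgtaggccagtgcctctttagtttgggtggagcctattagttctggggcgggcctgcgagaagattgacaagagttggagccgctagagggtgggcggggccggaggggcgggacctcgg
Hk2: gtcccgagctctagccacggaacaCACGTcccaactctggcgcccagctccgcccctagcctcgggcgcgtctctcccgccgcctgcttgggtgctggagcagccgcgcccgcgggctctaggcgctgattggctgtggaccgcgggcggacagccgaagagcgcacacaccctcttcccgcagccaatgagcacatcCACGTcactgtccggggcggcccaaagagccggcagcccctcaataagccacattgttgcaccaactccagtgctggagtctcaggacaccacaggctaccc
Hk3: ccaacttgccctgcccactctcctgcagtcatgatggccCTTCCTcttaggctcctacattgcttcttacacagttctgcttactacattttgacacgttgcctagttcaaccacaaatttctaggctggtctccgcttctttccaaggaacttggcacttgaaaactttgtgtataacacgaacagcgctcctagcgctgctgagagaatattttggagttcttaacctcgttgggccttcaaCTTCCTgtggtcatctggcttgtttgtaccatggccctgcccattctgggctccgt
The Pfkfb4 window held GCGTG at 1 place, starting at position -117 from the transcript start. The Hk2 window held ACGTG 2 times on the opposite strand, at -226 and -52. The Hk3 window held AGGAAG on the opposite strand at -211 and -6, and ACGTG on the same strand as these at -156, left in lower case. Windows of Hk1, Pfkl and Pfkp also held ACGTG or GCGTG and the window of Tigar held neither, while 43.8% of 32851 RefSeq promoter windows held at least 1 of the 2 cores. AGGAAG on either strand was in 35.4% of all windows, and of the 7 genes a window of Hk1 held it too (at -130). The E-box CACGTG, which contains ACGTG, was in none of the windows of the 7 genes and in 7.15% of all windows.

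Relatives of the 7 genes also moved in both directions. Of 10 listed relatives 6 had an entry and 5 were tested, of which 3 were higher and 2 lower in leukaemia (median 0.23). For this and the lists below, 49.1% of all tested genes were higher and 50.7% lower (median -0.16). Scaled to the table total, 3 relatives were higher and 1 lower (median 1.12). On that scale 4621 of all 8079 tested genes were higher and 2232 lower (median 0.43). Values scaled to the table total, here and below, are voom log2 folds on recovered reads and not differences of variance-stabilised values. With medians of ratios the same fit had 3 relatives higher and 2 lower (median 0.49). Adpgk encodes an ADP-dependent glucokinase of the endoplasmic reticulum. Adpgk fell to 3162 ± 262 normalised reads in leukaemia libraries, against 52381 ± 12326 in myeloid libraries (n = 5 each, SD), 16.6-fold lower (log2 difference -3.80, SE 0.133, limma adjusted p = 3.16e-11). Adpgk was also highest in myeloid replicates 2 (64450) and 4 (67051), and 194 bases of its exons overlap exons of Bbs4 on the opposite strand. Fbp1, the gene of the gluconeogenic fructose 1,6-bisphosphatase, was 7.48-fold higher in leukaemia (714 ± 101 normalised reads in leukaemia and 95.3 ± 46.4 in the myeloid group, limma adjusted p = 2.9e-08). Pfkm, the muscle-type phosphofructokinase gene, was 2.73-fold higher (321 ± 40.9 in leukaemia and 117 ± 42.1 in myeloid cells, limma adjusted p = 1.22e-05). It had 59 to 154 reads per library in myeloid cells and shares 341 bases of exon on its own strand with another annotated gene. Pfkfb3, whose product has the highest kinase over phosphatase activity of its family, was 1.46-fold lower in leukaemia under the authors' size factors (3243 ± 157 in leukaemia and 4747 ± 351 in the myeloid group), but had a log2 fold of 0.09 without passing when scaled to the table total. Pfkfb2 was 1.37-fold higher in leukaemia with overlapping groups (448 ± 68.1 in leukaemia and 326 ± 70.5 in the myeloid group, limma adjusted p = 0.0118), did not pass after quantile normalisation, and shares 1262 bases of exon on its own strand with another annotated gene. Hkdc1, which lies beside Hk1 in the genome, had 10 to 24 reads per library in leukaemia and 0 in all 5 myeloid libraries, at least 17.4-fold higher against a floor of 3 reads over the myeloid group.

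Of the other enzymes of glycolysis, most were lower in leukaemia under the authors' size factors, and this depended on the scaling. Of 17 listed genes 11 had an entry and 9 were tested, 2 higher and 7 lower (median -0.50). Over all tested genes 49.1% were higher and 50.7% lower (median -0.16). Gpi1, the isomerase between the hexokinase and phosphofructokinase steps, averaged 36248 ± 3647 normalised reads in leukaemia and 50105 ± 8857 in the myeloid group (log2 difference -0.45). Pkm, the pyruvate kinase gene, averaged 48842 ± 2842 in leukaemia and 80820 ± 14468 in myeloid cells (log2 difference -0.70). With medians of ratios 2 of the 9 were again higher and 7 lower, where 3965 of all 8079 tested genes were higher and 4041 lower. Scaled to the table total, 2 were higher and 0 lower, with a median of 0.12. Of all tested genes 4621 were higher and 2232 lower on that scale (median 0.43). After quantile normalisation 4 were higher and 2 lower (median 0.15), where 3795 of all tested genes were higher and 3311 lower (median 0.09). Gpi1 (0.23, limma adjusted p = 0.0158) and Pkm (0.26, limma adjusted p = 0.00223) passed as higher there. Tpi1 (1.73-fold) and Pgam1 (1.33-fold), the triose-phosphate isomerase and phosphoglycerate mutase genes, were higher under all 3 of the authors' size factors, the table total and quantile normalisation, with overlapping groups for Pgam1. Aldoc (126 ± 23.4 in leukaemia and 61.2 ± 21.0 in myeloid cells) and Pgam2 (52.8 ± 12.5 in leukaemia and 194 ± 27.4 in myeloid cells) lay under the filter.

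Genes that take glucose 6-phosphate out of glycolysis included 2 higher and 4 lower of 6 tested, from 9 listed (median -0.67), and 2 higher and 3 lower when scaled to the table total (median -0.11). Over all tested genes 49.1% were higher and 50.7% lower under the authors' size factors. Scaled to the table total, 4621 of all 8079 were higher and 2232 lower (median 0.43). G6pdx opens the pentose phosphate pathway and was 3.92-fold lower in leukaemia, and Gfpt1, the entry enzyme of hexosamine synthesis, was 3.27-fold lower. G6pc3, a glucose 6-phosphatase that reverses the hexokinase step in the endoplasmic reticulum, was 4.68-fold higher (1561 ± 115 normalised reads in leukaemia and 333 ± 79.0 in the myeloid group, limma adjusted p = 1.24e-09). Pgm1 was 1.44-fold higher. These 4 genes kept their direction and their call when scaled to the table total.

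No tested gene of the kinases that act on these enzymes was higher in leukaemia under these scalings. Akt phosphorylates HK2, and AMPK phosphorylates PFKFB2 and PFKFB3. All 8 tested genes of the AMPK and Akt list, of 11 listed, were lower in leukaemia under the authors' size factors (median -0.90). Over all tested genes 50.7% were lower there (median -0.16). Scaled to the table total, 5 of the list were lower and 0 higher (median -0.39). Of all 8079 tested genes 2232 were lower and 4621 higher on that scale (median 0.43). Prkab1, which encodes a regulatory subunit of AMPK, was 3.11-fold lower, and Prkaa1, which encodes a catalytic subunit, was 2.40-fold lower. For Akt1 the log2 difference was -0.55 with the authors' size factors and 0.06 without passing when scaled to the table total.

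Hypoxia regulators had 1 higher and 6 lower of 7 tested genes, of 8 listed (median -0.43), where 50.7% of all tested genes were lower (median -0.16). Vhl, which marks hypoxia-inducible factors for destruction, was 2.69-fold lower in leukaemia, and Arnt, their shared partner subunit, 1.82-fold lower. Egln3, an oxygen sensor that is itself induced by hypoxia, was 2.39-fold higher (1873 ± 275 normalised reads in leukaemia and 783 ± 200 in the myeloid group). Hif1a had a log2 difference of -0.27 with the authors' size factors and of 0.33 when scaled to the table total, and passed in opposite directions. Scaled to the table total the list had 2 higher and 2 lower genes (median 0.07). Of all 8079 tested genes 4621 were higher and 2232 lower there (median 0.43).

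Binding partners and regulators outside that list went both ways, 3 higher and 3 lower of 6 tested genes, of 8 listed (median -0.17), and 3 higher and 2 lower when scaled to the table total (median 0.47). The shares over all tested genes were 49.1% higher and 50.7% lower under the authors' size factors. With the table total as scale, 4621 of all 8079 were higher and 2232 lower (median 0.43). Vdac1 (1.35-fold) and Vdac3 (1.43-fold), which encode outer mitochondrial membrane channels of the family that HK1 and HK2 bind, were higher in leukaemia. Txnip, an inhibitor of glucose uptake induced by glucose, was 5.10-fold lower (5166 ± 410 normalised reads in leukaemia and 26361 ± 3107 in the myeloid group, limma adjusted p = 9.32e-11). Trp53, the gene of p53, was 3.10-fold higher in leukaemia (4974 ± 278 in leukaemia and 1602 ± 209 in myeloid cells), and Mdm2, which encodes its inhibitor and is also one of its targets, was 2.60-fold lower (1977 ± 163 in leukaemia and 5143 ± 255 in myeloid cells). These 5 genes kept their direction and call when scaled to the table total.

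**Figure D5:**
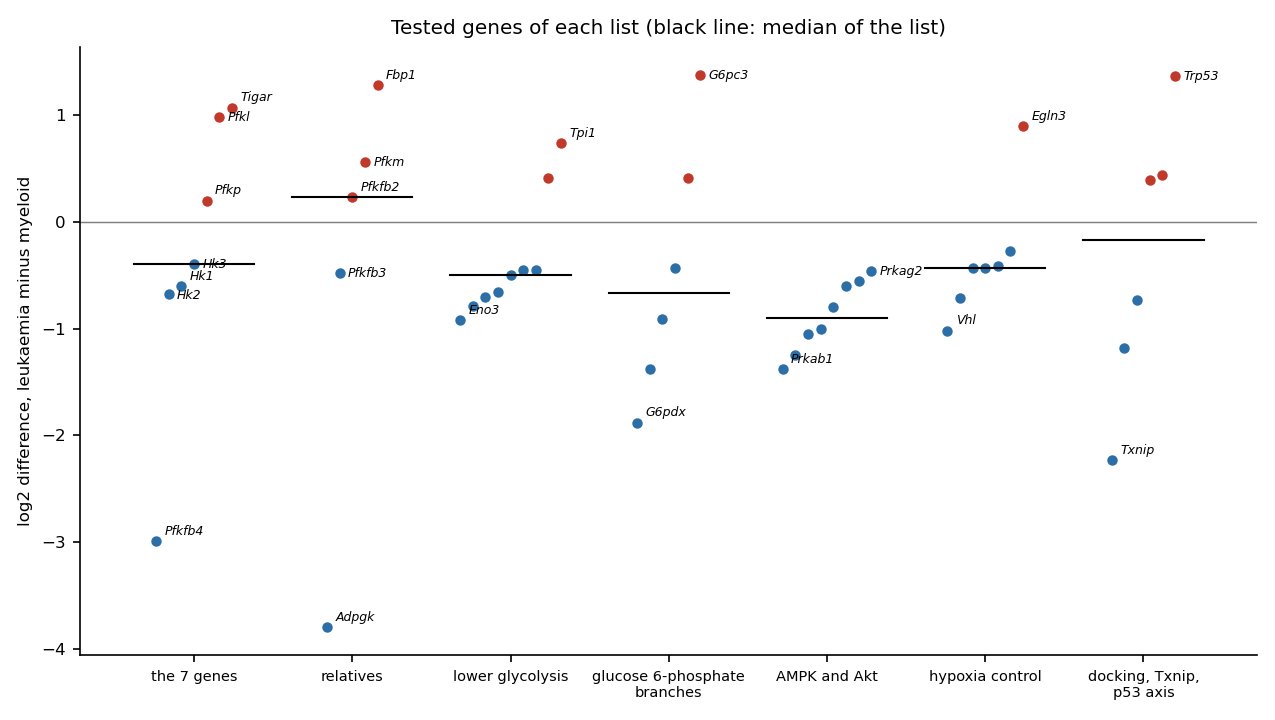
Log2 difference, leukaemia minus myeloid, with the authors' size factors (y axis), of each tested gene of the 7 genes and the 6 pathway lists, without the cell type marker lists (x axis), red above and blue below 0, with the list's median as a black line. Adpgk at -3.80 and Pfkfb4 at -2.99 are the lowest points shown, and every tested gene of the AMPK and Akt list lies below 0.

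Genes with the pattern most like that of each member were picked by Pearson correlation over the 10 libraries on the deposited scale, which mainly follows the group difference. Nearest to Pfkfb4 were Ap2a2 (r = 0.9994), Cdkn1b (r = 0.9991) and Rap1b (r = 0.9989), and 2328 genes in all had r over 0.95 with it. For Tigar they were Usp14 (r = 0.9977), Rpn2 (r = 0.9976) and Ddx1 (r = 0.9973). Nearest to Pfkl were Poc1a (r = 0.9972), Stip1 (r = 0.9962) and Fkbp4 (r = 0.9960), and to Pfkp Ebna1bp2 (r = 0.9804), Atpif1 (r = 0.9787) and Prrg1 (r = 0.9770). Among the nearest to Hk1 were Nek9 (r = 0.9944) and Efcab14 (r = 0.9943), and Hk2 had 8030462N17Rik (r = 0.9935), Zfp217 (r = 0.9931) and Mlxip (r = 0.9931). Hk3 had 58 genes with r over 0.95, against 106 for Pfkp and 1360 or more for the other 5, led by Crkl (r = 0.9902), Parvg (r = 0.9862) and the glycolytic gene Aldoa (r = 0.9809).

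Within the myeloid group, Hk1, Hk3, Pfkl and Pfkfb4 each had their 2 highest libraries in replicates 2 and 4, while Hk2, Pfkp and Tigar did not. Pfkl, for example, had 1980 and 1767 normalised reads in those libraries and 1351 to 1558 in replicates 1, 3 and 5. Without replicates 2 and 4, the log2 difference was -0.49 for Hk1, -0.69 for Hk2 and -0.22 for Hk3, all 3 with the authors' size factors. It was 1.09 for Pfkl, 0.22 for Pfkp, -2.89 for Pfkfb4 and 1.07 for Tigar, and all 7 genes passed. The Hk3 share of the hexokinases was then 4.81 points higher in leukaemia (exact two-sided permutation test, adjusted p = 0.0357). This leaves out replicate 2, the only myeloid library whose Hk3 share reached into the leukaemia range.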

How the data were processed

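The authors deposited 1 table of variance-stabilised expression on a log2 scale, for 10141 genes and 10 libraries. HISAT2 (2.0.4 and 2.2.1) and DESeq2 were named, per the submitters' processing notes. The counter, build, annotation and handling of strand are not given in the sources used here. How the genes of the table were chosen is not stated, and since 99.8% of those tested passed, adjusted p-values hold within this table only.

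All libraries shared a lowest value of 8.1823 (0 reads). The variance-stabilising function was inverted from it under its parametric form, and size factors were set so that low values became whole reads. Of values up to 300 reads, 100.0% came within 0.1 read of a whole number in each library. Size factors were 1.08 to 1.39 in leukaemia and 0.736 to 0.858 in myeloid cells.

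Leukaemia minus myeloid was fitted with limma 3.58.1 (R 4.3.3) on the deposited values, with a trended prior, two-sided tests and Benjamini-Hochberg adjustment over 8079 genes whose mean lay over 1 unit above the lowest value (about 145 normalised reads). Groups came from the sample titles, since the cell type field reads the same for all libraries. Shares and ratios were tested by exact permutation over 252 assignments (scipy 1.17.1). Lengths came from GENCODE M21. The fit and the recovery of reads were run on simulated data made with the same variance-stabilising function. Few genes differed there, unlike in this table, so that run checked the code and not the assumptions. Named genes were the 7 genes, genes of fixed pathway and marker lists, and the 3 genes most correlated with each of the 7, of which 1 for Hk1 is not reported here. The 7 genes, lists and tests were chosen with earlier results of these data known. Alternatives were other filters, scalings, lengths, a replicate block and left-out libraries.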

Additional observations from a re-analysis of the deposited data

How the results depend on the processing

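Pfkl, Pfkp and Pfkfb4 kept their direction and call under all 20 alternatives, and Tigar under the 19 that held it, since the stricter filter removed Tigar. Hk1 and Hk2 did not pass after quantile normalisation (log2 differences -0.06 and -0.14) or scaled to the table total (-0.03 and -0.12), and Hk3 reversed under both (0.19 and 0.24). Over all genes, 3965 were called higher and 4097 lower with the authors' size factors, against 4621 and 2232 scaled to the table total, which moved the share of higher calls to 67.4% from 49.2%. Leaving out 1 library at a time, the Hk3 share differed by 3.12 to 4.44 points (adjusted exact p from 0.0159 to 0.0556) and the Hk2 share by -2.54 to -1.59 (0.0159 to 0.111). Without myeloid replicates 2 and 4 the Hk2 share passed at -2.95 points, again with the low replicate 2 left out. With the replicate block, an exact sign-flip test over 5 same-numbered pairs cannot go below 0.0625. There the Hk1 (-1.66), Hk3 (3.58) and Pfkl (16.4) shares and the log2 ratios of Pfkfb4 to Tigar (-5.50), hexokinase to phosphofructokinase (-1.14) and Pfkfb4 to phosphofructokinase (-4.25) had adjusted p = 0.0729. The replicate block in limma left all 7 genes called, and 8018 genes in all. Same-numbered libraries deviated together with r from -0.022 to 0.316 across genes, over 0.1 in 4 of 5 pairs. Differently numbered libraries ranged from -0.368 to 0.347, and 2 of 5 leukaemia libraries correlated best with their own number. These values do not settle whether the numbers pair libraries. Both groups are numbered alike, but no label says that a number marks a shared mouse, so the main tests were unpaired. Coding length from RefSeq proteins was not run, and the longest GENCODE coding sequence, chosen after seeing the data, took its place. The fewest reads of any of the 7 genes in a library were 177, for Tigar in myeloid replicate 4. Low reads matter most for Tigar, with a log2 difference of 1.07 on the deposited scale and 1.92 on recovered reads.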

Other observations

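The comparison of Adpgk with the hexokinases was made after its values were seen, and carries no test. Per kilobase of the longest coding transcript, Adpgk stood at 0.145 ± 0.00771 of the summed Hk1, Hk2 and Hk3 level in leukaemia and at 1.71 ± 0.152 of it in myeloid cells (n = 5 each, SD). It was 0.137 to 0.158 in the leukaemia libraries and 1.55 to 1.87 in the myeloid libraries, highest in myeloid replicates 2 and 4. The myeloid side of 1 depends on the length used. With merged exons the ratio was 0.0448 ± 0.00235 in leukaemia and 0.531 ± 0.0469 in myeloid cells, and with coding sequences it was 0.190 ± 0.0104 in leukaemia and 2.21 ± 0.219 in myeloid cells. Under all 3 lengths, every leukaemia library lay below every myeloid library.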
